A study of Arabidopsis thaliana with 18 samples.

Results

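The levels of all miRNA entries were compared between the suppressor line *dcl1-24/hyl1-2* and the wild type Col-0 at 21 °C, over 3 libraries of each genotype. The comparison took every row of the deposited miRNA table, 161 entries in all, and 6 of the 18 libraries of the series. Both groups were whole *Arabidopsis thaliana* seedlings, 4 d old, kept at 21 °C throughout (2 days, then 2 more) in red light, and collected at 96 h. The Col-0 seedlings carried neither allele. The *dcl1-24/hyl1-2* seedlings carried the *hyl1-2* allele of HYL1 and the *dcl1-24* allele of DCL1, which replaces a proline with a serine in the RNase IIIa domain of the enzyme. The suppressor is a single line that came out of an EMS screen in *hyl1-2*, so the contributions of the *hyl1-2* allele, the *dcl1-24* allele and any other EMS change cannot be told apart in this comparison. The remaining libraries were *hyl1-2* at 21 °C and all 3 genotypes moved to 27 °C for the last 2 days. They entered the estimate of the spread, and their levels are given beside the results where they bear on the same miRNAs. Small RNA libraries do not measure the HYL1 and DCL1 mRNAs, so the genotype labels were not checked against the mutated genes.

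Plant miRNAs are cut out of hairpin-shaped precursors by the RNase III enzyme DCL1, in the nucleus, together with the double-stranded RNA-binding protein HYL1. The cuts release a short duplex. The strand that is loaded into an ARGONAUTE protein is called the guide strand, and the strand that is usually degraded is called the passenger strand. In *Arabidopsis*, old families such as miR156, miR159 and miR166 are shared with most land plants and target mRNAs of developmental regulators, whereas many entries of the annotation belong to young families found in few species, usually with a single locus and a low level. A few hairpins with long, near-perfect stems, among them MIR822, are cut by DCL4 instead of DCL1.

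The sequences of the miRNAs on which the comparison turned are shown here. Mature sequences were read from the TAIR10.1 genome at the positions of the RefSeq annotation, 5′ to 3′, with the seed (bases 2 to 8) in capitals, and the table's names all had a position there. The first set shows 10 of the 19 miRNAs that were increased in *dcl1-24/hyl1-2*, among them the 6 largest increases, both strands of MIR837 and MIR862, and the overlapping pair miR833a-5p and miR833b. No seed is shared among them except that of this pair.
miR5026: aCUCAUAAgaucgugacacgu
miR5650: uUGUUUUGgaucuuagauaca
miR837-3p: aAACGAACaaaaaacugaugg
miR837-5p: aUCAGUUUcuuguucguuuca
miR4228-3p: uCGGAUGCgaaacgguggugu
miR833a-5p: uGUUUGUUguacucggucuagu
miR833b: uGUUUGUUgacaucggucuag
miR5654-5p: aUAAAUCCcaacaucuucca
miR862-5p: uCCAAUAGgucgagcaugugc
miR862-3p: aUAUGCUGgaucuacuugaag

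miR5026 lies at chr4:7844612-7844632 on the plus strand, in an intron of the non-coding RNA gene AT4G13495. miR5650 lies at chr2:19686959-19686979 in an intron of EDA4. The strands of miR837 lie at chr1:6520995-6521015 and chr1:6521053-6521073, in an intron of NRT1.9, which encodes a nitrate transporter. The strands of miR862 lie at chr2:10718106-10718126 and chr2:10718170-10718190, in an intron of PKL, which encodes a chromatin remodelling factor. All of these are on the same strand as the host gene. miR833a-5p, at chr1:29525204-29525225 on the plus strand, and miR833b, at chr1:29525264-29525284 on the minus strand, come from overlapping hairpins transcribed in opposite directions within an intron of AT1G78476. Counted from the 5′ end, they differ over their shared length at 3 positions (U10A, A11C and C12A from miR833a-5p to miR833b), so that neither can be counted as the other in alignments without mismatches.

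The hairpin of MIR862 is printed as an example of these precursors, because both of its strands were increased. It spans chr2:10718096-10718198 on the plus strand, and both mature strands are in capitals.
MIR862: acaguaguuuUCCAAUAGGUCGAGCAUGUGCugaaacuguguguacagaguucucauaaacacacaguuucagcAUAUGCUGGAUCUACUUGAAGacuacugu

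The second set shows decreased miRNAs, among them the 5 largest decreases and both strands of miR822, with the close relatives of miR159a and miR319c. miR159a and miR159b-3p share their seed and differ only at the last base (A21U from miR159a to miR159b-3p), and miR319c and miR319a differ only at the base before the last (U20C from miR319c to miR319a).
miR159a: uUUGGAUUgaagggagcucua
miR159b-3p: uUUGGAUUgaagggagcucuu
miR319c: uUGGACUGaagggagcuccuu
miR319a: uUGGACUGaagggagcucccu
miR162a-3p: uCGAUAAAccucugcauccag
miR173-5p: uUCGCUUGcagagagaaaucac
miR822-5p: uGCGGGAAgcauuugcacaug
miR822-3p: uGUGCAAAugcuuucuacagg

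miR159a lies at chr1:27713234-27713254 on the minus strand, miR319c at chr2:17029870-17029890 on the plus strand, miR162a-3p at chr5:2634936-2634956 on the minus strand and miR173-5p at chr3:8236161-8236182 on the plus strand. No other annotated gene overlaps these 4 positions. The strands of miR822, at chr5:897287-897307 and chr5:897067-897087 on the minus strand, lie opposite to an intron of AT5G03553.

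Levels are given as RPMR, miRNA reads relative to the 45S rRNA reads of their library, so a value depends on the rRNA fragments of a library as well as on the miRNA. Within a library, the values were whole multiples of the smallest, from which 74925 to 104136 miRNA reads per Col-0 library and 61810 to 119743 per *dcl1-24/hyl1-2* library followed. Replicate 3 of *dcl1-24/hyl1-2* stood apart. It had 1115776 implied 45S rRNA reads, against 2019838 to 2395070 in the other 5 libraries, and the highest summed RPMR of the 6, at 107318. Of the 139 entries tested, 110 had their highest *dcl1-24/hyl1-2* value in this library, as had 16 of the 19 increased and 8 of the 11 decreased entries described below. The counts of calls and some of the other results are therefore given with and without it. The study describes the libraries as biological replicates without saying whether they were separate plantings. The p-values cover only spread between libraries of this series.

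To determine how far the miRNA population of the suppressor line matched that of the wild type, overall levels were compared first. The mean of log10(RPMR + 1) over the 161 entries was 1.17, 1.01 and 1.04 in the Col-0 libraries and 1.04, 1.01 and 1.28 in the *dcl1-24/hyl1-2* libraries. These ranges overlapped, and the difference of 0.032 gave a p of 0.9 in a two-sided exact permutation test, in which 3 against 3 libraries cannot go below 0.1. Summed miRNA RPMR was 51557, 31638 and 41777 in Col-0 and 40339, 29167 and 107318 in *dcl1-24/hyl1-2*, a log2 ratio of 0.30 (exact permutation p = 0.9).

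The composition behind these sums differed. miR5026 made up 4.26, 1.49 and 1.37% of the summed RPMR in the Col-0 libraries, and 38.7, 37.2 and 64.4% in the *dcl1-24/hyl1-2* libraries, where it was the most abundant entry in every library. A large share was not particular to the suppressor line. In *hyl1-2* at 21 °C it was 22.4, 40.1 and 39.0%, of far smaller sums (6116, 7657 and 3757 RPMR). Without miR5026, the sums were 49360, 31168 and 41204 RPMR in Col-0 and 24731, 18322 and 38170 RPMR in *dcl1-24/hyl1-2*. The log2 ratio of these sums was -0.63 (exact permutation p = 0.2), with overlapping libraries. Without replicate 3 of *dcl1-24/hyl1-2*, the log2 ratio of the whole sums was -0.25.

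Single entries were compared with limma on log2(RPMR + 1), and entries with an adjusted p under 0.05 are called higher or lower. Its SE and p-values use a spread drawn from all 18 libraries and moved towards a trend over all entries. They are therefore not the spread of a single entry in the libraries compared, and can be wider or narrower than its values. A filter at 1 RPMR (the mean of all 18 libraries) left 139 entries to test. Of these, 19 were higher (13.7%) and 11 were lower (7.91%) in *dcl1-24/hyl1-2*, and 83 (59.7%) lay within 2-fold of Col-0. The study's own threshold, an unadjusted p under 0.01 with a change over 2-fold, gave the same counts, 19 (13.7%) and 11 (7.91%). The 3 libraries of each genotype did not overlap for 20 entries that were higher (14.4%) and for 16 that were lower (11.5%). The median log2 fold change over the 139 entries was -0.07, and -0.43 without replicate 3 of *dcl1-24/hyl1-2*.

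These counts shifted with the scaling. With libraries scaled to their summed miRNA RPMR, of which miR5026 is a large share, the median of all entries moved to -0.32, and 13 entries were higher and 18 lower. Scaled to the sum without miR5026, the median was 0.43, with 27 higher and 7 lower. Median-of-ratios scaling gave a median of 0.06, with 22 higher and 16 lower. No called entry changed its sign under any scaling tried. Without replicate 3 of *dcl1-24/hyl1-2*, 15 entries were higher, of which 14 were among the 19, and 14 were lower, of which 10 were among the 11.

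**Figure D1:**
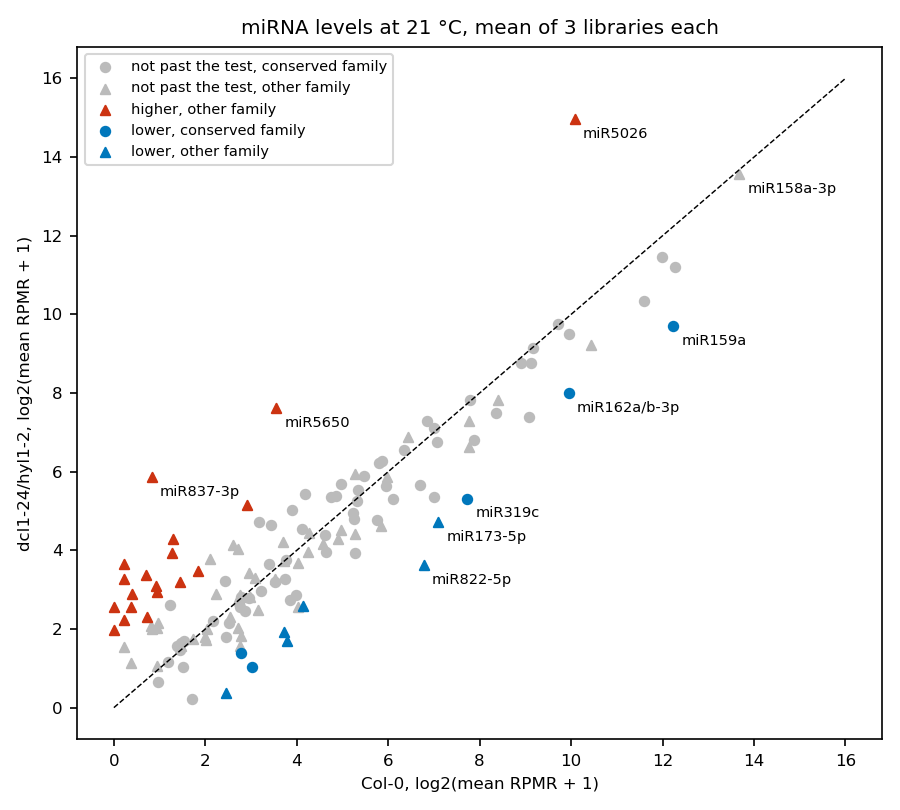
Mean level of each of the 139 tested entries in Col-0 (horizontal) and in *dcl1-24/hyl1-2* (vertical) at 21 °C, both as log2(mean RPMR + 1) over 3 libraries, with the line of equal levels dashed. The 19 higher entries are all triangles (families not broadly conserved) and, apart from miR5026 and miR5650, sit at the low end of the Col-0 axis.

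The 19 increased entries all belonged to families that are not broadly conserved. Of the 70 tested entries of such families, 19 were higher and 6 lower, whereas of the 69 entries of conserved families 0 were higher and 5 lower, although 6 conserved entries were higher when libraries were scaled to the sum without miR5026. All 19 came from single loci, as did 112 of the 139 entries tested and 9 of the 11 lower ones. Of the 19, 17 had a Col-0 mean under 10 RPMR, as had 67 of the 139. The median Col-0 level was 26.1 RPMR for conserved entries and 5.64 RPMR for the others. The filter took the mean of all 18 libraries, so entries near 0 in Col-0 were tested only where other libraries raised that mean. The split by family was thus partly set by the filter and is a description. With replicate 3 left out, the conserved families had 0 higher and 6 lower entries and the other families 15 and 8.

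miR5026 rose most. Its level was 2196, 470 and 573 RPMR in the Col-0 libraries and 15608, 10845 and 69148 RPMR in the *dcl1-24/hyl1-2* libraries. The lowest suppressor library was above the highest wild-type library, and replicate 3 was far above the other two. The log2 fold change was 4.76 ± 0.62 (SE), a 27.0-fold increase (limma, adjusted p = 8.4e-10), and 3.95 without replicate 3. In *hyl1-2* seedlings at 21 °C the level was 1372, 3070 and 1467 RPMR, which overlapped the range of Col-0 and lay below all *dcl1-24/hyl1-2* libraries (log2 fold change of *hyl1-2* against Col-0 1.13, adjusted p = 0.11).

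miR863-5p is encoded in an exon of the same non-coding gene, AT4G13495, whose intron holds miR5026. It measured 0, 0.422 and 2.36 RPMR in Col-0 and 8.77, 4.25 and 7.17 RPMR in *dcl1-24/hyl1-2*. The genotypes did not overlap (log2 fold change 2.15 ± 0.63, limma, adjusted p = 0.0070), at levels of a few reads per library in Col-0. Its adjusted p was 0.055 both when libraries were scaled to summed RPMR and without Col-0 replicate 1.

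miR5650 was the next most increased entry. It measured 19.8, 7.60 and 4.73 RPMR in Col-0 and 136, 97.2 and 349.5 RPMR in *dcl1-24/hyl1-2*. All suppressor libraries were several times above the highest Col-0 library, with a log2 fold change of 4.06 ± 0.74 (16.6-fold, limma, adjusted p = 1.0e-05). In *hyl1-2* it measured 3.53 to 5.56 RPMR, which overlapped the range of Col-0.

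The strands of the MIR837 duplex both rose, but unevenly among libraries. miR837-3p measured 1.49, 0.845 and 0 RPMR in Col-0 and 7.52, 7.55 and 156 RPMR in *dcl1-24/hyl1-2* (log2 fold change 3.76 ± 0.72, limma, adjusted p = 2.3e-05). Replicate 3 carried most of this, and without it the log2 fold change was 2.36 (adjusted p = 0.0093). miR837-5p measured 0.495, 0 and 0 RPMR in Col-0 and 0, 3.78 and 7.17 RPMR in *dcl1-24/hyl1-2*, with overlapping libraries, and its call (log2 fold change 1.57, adjusted p = 0.016) was lost without replicate 3 (0.93, adjusted p = 0.24).

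Both strands of MIR862 rose as well. miR862-5p was at 0.495, 0 and 0.473 RPMR in Col-0 and at 3.34, 4.25 and 11.7 RPMR in *dcl1-24/hyl1-2* (log2 fold change 2.34 ± 0.50, limma, adjusted p = 0.00015). miR862-3p was listed at 0 in all Col-0 libraries and at 2.09, 2.83 and 9.86 RPMR in *dcl1-24/hyl1-2* (adjusted p = 0.00010), and no fold change is given for it. With 0 reads of miR862-3p and at most 1 read of miR862-5p in each Col-0 library, the ratio of the strands could not be compared between the genotypes.

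The opposed pair miR833a-5p and miR833b increased together. miR833a-5p rose from 1.49, 0.422 and 0 RPMR to 5.43, 5.66 and 17.0 RPMR (log2 fold change 2.59 ± 0.62, limma, adjusted p = 0.00079). miR833b rose from 1.98, 0 and 2.36 RPMR to 13.4, 12.3 and 29.6 RPMR (log2 fold change 3.06 ± 0.64, adjusted p = 0.00010). Neither pair of groups overlapped. The hairpins overlap on opposite strands, so both readings come from the same stretch of the chromosome, though from separately annotated genes, MIR833a and MIR833b.

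The strands of MIR3440b also moved together. miR3440b-3p rose from 1.98, 0.845 and 1.42 RPMR to 12.1, 11.3 and 19.7 RPMR (log2 fold change 2.66 ± 0.61, limma, adjusted p = 0.00045). For miR3440b-5p the values were 0, 0.422 and 0.473 RPMR in Col-0 and 3.34, 5.19 and 6.27 RPMR in *dcl1-24/hyl1-2* (log2 fold change 2.18 ± 0.53, adjusted p = 0.00079). No library of one genotype reached the range of the other for either strand.

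miR4228-3p and miR5654-5p were nearly undetected in Col-0. miR4228-3p was at 0, 0 and 0.473 RPMR there and at 8.77, 9.91 and 16.1 RPMR in *dcl1-24/hyl1-2* (log2 fold change 3.43 ± 0.58, limma, adjusted p = 2.8e-06). The Col-0 value of 0.473 RPMR corresponds to 1 read. miR5654-5p was at 0, 0 and 0.473 RPMR in Col-0 and at 3.76, 8.02 and 14.3 RPMR in *dcl1-24/hyl1-2* (log2 fold change 2.93 ± 0.63, adjusted p = 0.00015). It was the single entry of the 139 (0.719%) that was called higher in *hyl1-2* too, at 4.54, 3.34 and 2.04 RPMR (log2 fold change 1.88, adjusted p = 0.0071).

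The 7 remaining increased entries were miR5996, miR5639-5p, miR8178, miR860, miR3434-5p, miR5024-3p and, as given above, miR837-5p, with log2 fold changes of 1.55 to 2.21 apart from miR8178. miR5996, in the non-coding part of an exon of UNE15, measured at most 10.9 RPMR in a Col-0 library and 44.3, 14.2 and 45.7 RPMR in *dcl1-24/hyl1-2*. miR8178 was listed at 0 in every Col-0 library and at 0.418, 4.72 and 3.58 RPMR in *dcl1-24/hyl1-2*. miR3434-5p and miR5024-3p, in introns of the alpha-adaptin gene and of the amino acid permease gene AAP5, overlapped between the genotypes. For all 7, the call was lost when at least 1 single library was left out. Just outside the threshold lay miR5663-5p (log2 fold change 1.30, adjusted p = 0.053), miR5632-5p (1.37, adjusted p = 0.071) and miR1888a (1.58, adjusted p = 0.071).

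**Figure D2:**
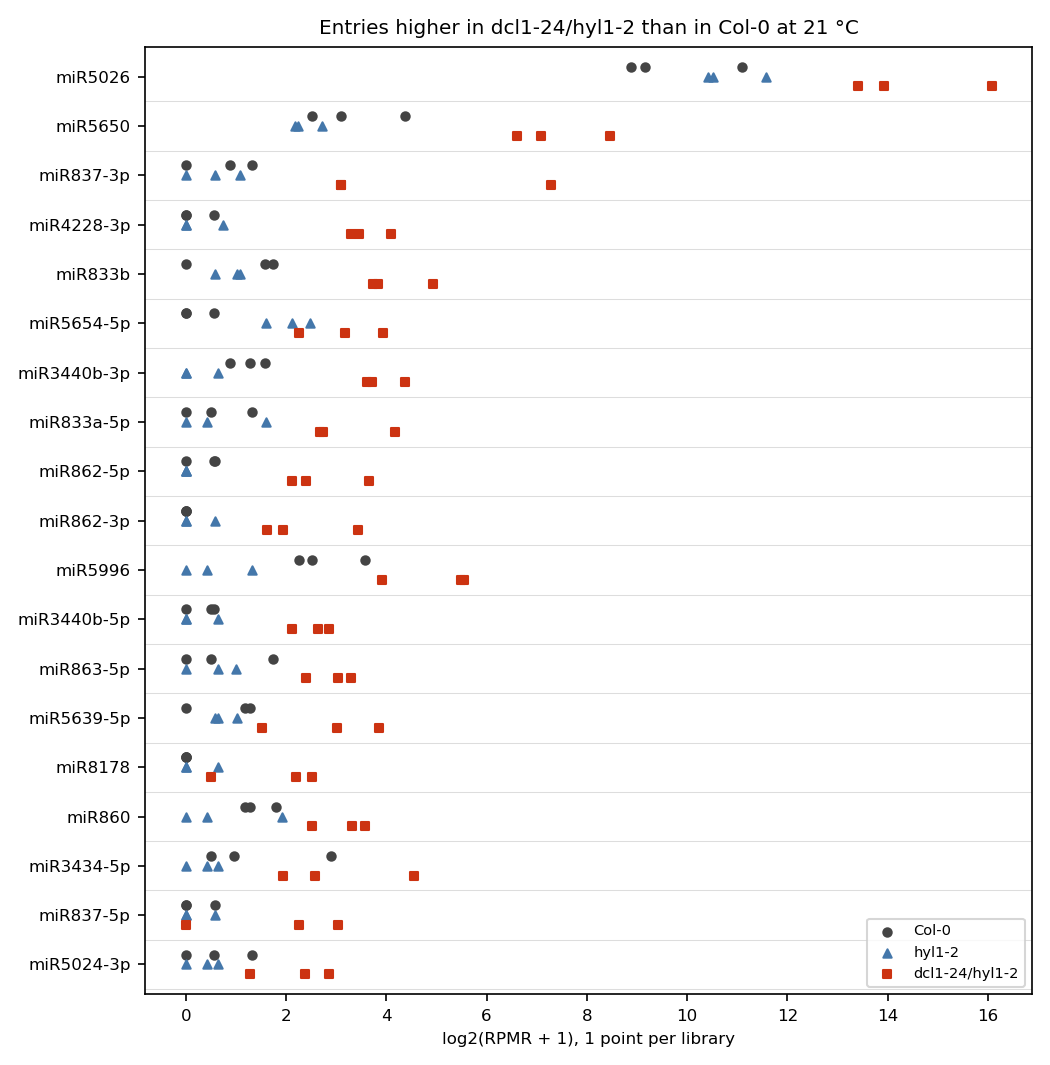
Level of the 19 increased entries in each library at 21 °C, as log2(RPMR + 1), with 3 points each for Col-0 (circles), *hyl1-2* (triangles) and *dcl1-24/hyl1-2* (squares). The squares lie to the right of all circles for 16 of the 19 entries, the exceptions being miR3434-5p, miR837-5p and miR5024-3p, and most entries other than miR5026 lie near 0 in Col-0 and *hyl1-2* alike.

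The position of an entry relative to other genes was compared next. The fold change does not use it, but the filter on all 18 libraries bears on which entries were tested. Some intronic entries near 0 in Col-0, such as miR862-3p, passed the filter through their *dcl1-24/hyl1-2* libraries. The counts are therefore a description. Of 21 tested entries inside an intron of a gene on the same strand, 9 were higher and 1 lower, with a median log2 fold change of 1.54. The 87 entries that overlapped no other gene had 2 higher and 7 lower entries and a median of -0.17. Entries in exons of the same strand had 5 higher and 1 lower of 16, and entries opposite to a gene 3 higher and 2 lower of 15. The intronic entries lay in 18 host genes, 7 of which held an increased entry, so that the strands of a duplex are not independent. Without replicate 3 of *dcl1-24/hyl1-2*, intronic entries had 7 higher and 1 lower (median 1.08). Entries that overlapped no other gene then had 2 higher and 9 lower (median -0.53).

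Intronic entries were also low in Col-0, with a median of 1.78 RPMR against 18.2 RPMR for entries outside other genes. Among entries of non-conserved families under 10 RPMR in Col-0, 7 of 17 intronic entries were higher, and so were 10 of 26 other entries. At 10 RPMR or more, 2 of 3 intronic entries were higher (miR5026 and miR5650), against 0 of 24 other entries, of which 5 were lower. With low entries alone, the shares in and outside introns were thus close, and both are subject to the same limit of the filter. miR838, which lies in an intron of the DCL1 gene itself, measured 1.49, 3.38 and 0.473 RPMR in Col-0 and 0.418, 0.944 and 4.48 RPMR in *dcl1-24/hyl1-2*, with overlapping libraries (log2 fold change -0.03, limma, adjusted p = 0.98).

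By level alone, 17 of the 67 entries under 10 RPMR in Col-0 were higher and 3 lower, with a median log2 fold change of 0.27. From 10 to 100 RPMR, 1 of 44 was higher and 3 were lower. At 100 RPMR or more, 1 of 28 was higher (miR5026) and 5 were lower, with a median of -0.53, and 25 of these 28 had a negative fold change. Without replicate 3 of *dcl1-24/hyl1-2*, entries under 10 RPMR had 13 higher and 3 lower, and those at 100 RPMR or more 1 and 6. The level in Col-0 is also the base of the fold change. Entries near 0 in Col-0 were tested only where other libraries raised their mean over all 18 libraries to 1 RPMR. The excess of higher calls among low entries was thus partly set by the filter, and this grouping is a description. Entries beginning with U had 12 higher and 10 lower of 80, and those beginning with A 6 higher and 1 lower of 27. Precursor length separated the calls little, with 5 higher and 2 lower of 39 under 120 nt, 10 and 7 of 69 from 120 nt to under 200 nt, and 4 and 2 of 31 at 200 nt or more.

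The 11 decreased entries included guide strands of conserved families. miR159a, which targets the mRNAs of the MYB33 and MYB65 transcription factors, was the most abundant of them. It measured 5439, 4090 and 4938 RPMR in Col-0 and 770, 817 and 919 RPMR in *dcl1-24/hyl1-2*. The values were tight within each genotype and did not overlap, with a log2 fold change of -2.52 ± 0.67, or 5.74-fold lower (limma, adjusted p = 0.0028). In *hyl1-2* the level was 89.8, 85.1 and 32.7 RPMR, below both other genotypes.

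Its relative miR159b-3p, which shares the seed and differs only by A21U, changed less. It measured 6941, 3642 and 4212 RPMR in Col-0 and 2551, 1836 and 2675 RPMR in *dcl1-24/hyl1-2*. These values did not overlap either, but the log2 fold change of -1.03 ± 0.64 did not pass the test (limma, adjusted p = 0.30). Under median-of-ratios scaling it was -0.85 (adjusted p = 0.027) and scaled to summed RPMR -1.32 (adjusted p = 0.0070). The ratio of miR159a to miR159b-3p within a library, which does not depend on the 45S rRNA scaling, was 0.784, 1.12 and 1.17 in Col-0 and 0.302, 0.445 and 0.343 in *dcl1-24/hyl1-2*. All suppressor ratios were below all wild-type ratios, a 2.82-fold difference (exact permutation p = 0.1, the smallest possible).

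The miR319 family, which targets mRNAs of TCP transcription factors in leaf development, showed the same kind of split. miR319c measured 277, 163 and 195 RPMR in Col-0 and 50.5, 32.6 and 33.2 RPMR in *dcl1-24/hyl1-2*, without overlap (log2 fold change -2.41 ± 0.74, 5.33-fold lower, limma, adjusted p = 0.010). miR319a and miR319b, which have an identical mature sequence and form 1 entry, measured 1197, 821 and 950 RPMR in Col-0 and 776, 571 and 807 RPMR in *dcl1-24/hyl1-2* (log2 fold change -0.46, 95% interval -1.81 to 0.89, adjusted p = 0.85). The ratio of miR319c to miR319a/b was 0.232, 0.198 and 0.205 in Col-0 and 0.0651, 0.0570 and 0.0411 in *dcl1-24/hyl1-2*, a 3.96-fold difference without overlap (exact permutation p = 0.1, the smallest possible). Reads shortened at the 3′ end past the differing base cannot be assigned between the members of either family.

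miR162, which targets the DCL1 mRNA, fell in both strands. The guide strand miR162a/b-3p measured 1499, 551 and 913 RPMR in Col-0 and 80.6, 88.7 and 590 RPMR in *dcl1-24/hyl1-2* (log2 fold change -2.48 ± 0.75, limma, adjusted p = 0.0087). Replicate 3 reached into the Col-0 range while the other suppressor libraries were far below it, and the adjusted p was 0.084 without replicate 1 and 0.065 without replicate 2. The passenger strand miR162a/b-5p measured 8.42, 5.49 and 7.56 RPMR in Col-0 and 0.835, 0.472 and 1.79 RPMR in *dcl1-24/hyl1-2*, without overlap (log2 fold change -2.04 ± 0.54, adjusted p = 0.0024).

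miR173-5p, the 22-nt trigger of secondary small interfering RNAs from TAS1 and TAS2 transcripts, fell too. It measured 87.6, 202 and 115 RPMR in Col-0 and 15.0, 26.4 and 34.1 RPMR in *dcl1-24/hyl1-2*. The genotypes were well separated (log2 fold change -2.36 ± 0.75, 5.14-fold lower, limma, adjusted p = 0.013), and the adjusted p rose to 0.074 without Col-0 replicate 2 and to 0.079 without *dcl1-24/hyl1-2* replicate 1. Scaled to the sum without miR5026, the log2 fold change was -1.72 (adjusted p = 0.089). In *hyl1-2* it was nearly absent, at 0, 3.34 and 1.36 RPMR.

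miR822 had the largest decrease and a pattern of its own. miR822-5p measured 92.1, 126 and 107 RPMR in Col-0 and 4.59, 13.2 and 16.1 RPMR in *dcl1-24/hyl1-2*, without overlap (log2 fold change -3.29 ± 0.75, 9.80-fold lower, limma, adjusted p = 0.00034). Its level in *hyl1-2* was 92.8, 89.0 and 23.8 RPMR, so that all *hyl1-2* libraries were above all *dcl1-24/hyl1-2* libraries (log2 fold change of *hyl1-2* against Col-0 -0.87, adjusted p = 0.31, and of *dcl1-24/hyl1-2* against *hyl1-2* -2.42, adjusted p = 0.0029).

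The other strand, miR822-3p, measured 9.41, 20.3 and 8.98 RPMR in Col-0, 8.57, 12.2 and 6.13 RPMR in *hyl1-2* and 1.25, 1.89 and 3.58 RPMR in *dcl1-24/hyl1-2*. The suppressor libraries were again below those of both other genotypes (log2 fold change against Col-0 -2.07 ± 0.70, limma, adjusted p = 0.020, and against *hyl1-2* -1.64, adjusted p = 0.029). These comparisons share the *dcl1-24/hyl1-2* or the Col-0 libraries. The strands of miR822 were the only decreased entries that were also lower than in *hyl1-2* by limma, whereas 6 of the 11 were higher than in *hyl1-2*, in a comparison that called 111 of the 139 entries higher (79.9%) and 3 lower (2.16%). The list of DCL4 products matched 3 entries of the table, of which miR869.2 did not pass the filter on low levels.

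The other decreased entries were miR779.2, miR848, miR1886.2 and miR393a-3p, at 26.7 RPMR or less in every Col-0 library. miR393a-3p is the passenger strand of miR393a, whose guide targets auxin receptor mRNAs. It measured 5.94, 4.64 and 7.09 RPMR in Col-0 and 2.51, 2.36 and 0 RPMR in *dcl1-24/hyl1-2* (log2 fold change -1.58, limma, adjusted p = 0.044), and its adjusted p was 0.13 under median-of-ratios scaling. miR779.2 overlapped between the genotypes, and its adjusted p was 0.26 without *dcl1-24/hyl1-2* replicate 2. For miR1886.2, with 14.4, 10.1 and 11.8 RPMR in Col-0 and 2.92, 1.89 and 3.58 RPMR in *dcl1-24/hyl1-2*, all 3 *hyl1-2* libraries were listed at 0. Just outside the threshold were miR775 (log2 fold change -1.68, adjusted p = 0.057) and miR171b-5p (-1.29, adjusted p = 0.057), both without overlap.

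**Figure D3:**
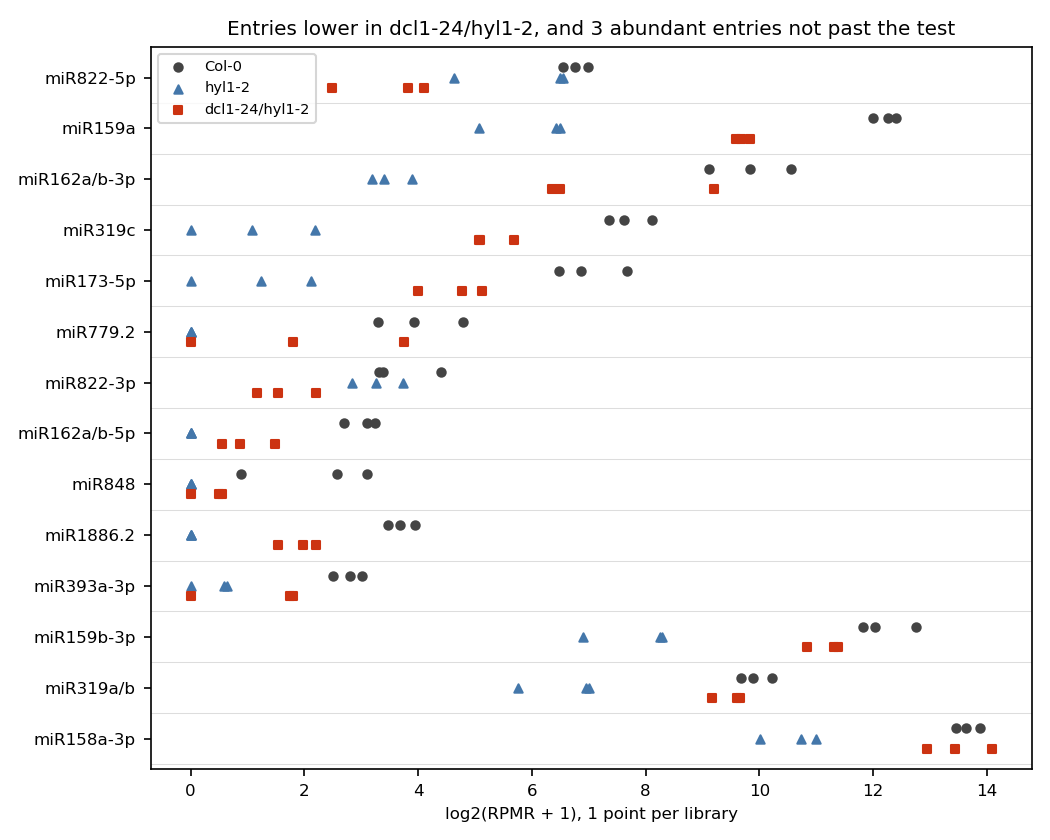
Level of the 11 decreased entries and of 3 abundant entries that did not pass the test, in each library at 21 °C, as log2(RPMR + 1), with 3 points each for Col-0 (circles), *hyl1-2* (triangles) and *dcl1-24/hyl1-2* (squares). For miR159a, miR319c and miR173-5p the squares lie between the triangles and the circles, and for both strands of miR822 they lie to the left of both.

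Most of the other abundant entries did not pass the test. miR158a-3p, the most abundant miRNA in Col-0, measured 12781, 11229 and 15144 RPMR there and 11189, 7866 and 17446 RPMR in *dcl1-24/hyl1-2* (log2 fold change -0.17, 95% interval -1.32 to 0.98, limma, adjusted p = 0.95). The guide of miR166, which targets class III homeodomain leucine zipper mRNAs, measured 3609, 2998 and 5663 RPMR in Col-0 and 2904, 1812 and 3780 RPMR in *dcl1-24/hyl1-2* (log2 fold change -0.54, interval -1.78 to 0.69, adjusted p = 0.77). The shared guide of miR156a to miR156f, which targets mRNAs of SPL transcription factors, measured 5696, 1254 and 2372 RPMR in Col-0 and 1435, 691 and 1767 RPMR in *dcl1-24/hyl1-2* (log2 fold change -1.09, interval -2.42 to 0.24, adjusted p = 0.29). These intervals allow a change of 2-fold or more, so that equality was not shown. Under median-of-ratios scaling the miR156 guide was at -0.91 (adjusted p = 0.036), and scaled to summed RPMR at -1.39 (adjusted p = 0.0070).

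miR161.1, a regulator of pentatricopeptide repeat mRNAs, was at 2261, 884 and 1015 RPMR in Col-0 and at 748, 455 and 570 RPMR in *dcl1-24/hyl1-2*. Its libraries did not overlap, but the log2 fold change of -1.13 ± 0.68 did not pass the test (limma, adjusted p = 0.29). It was called lower when scaled to summed RPMR (-1.42, adjusted p = 0.012) and under median-of-ratios scaling (-0.95, adjusted p = 0.046). miR403-3p, which targets AGO2 mRNA, was at 1162, 555 and 790 RPMR in Col-0 and at 380, 341 and 1889 RPMR in *dcl1-24/hyl1-2* (log2 fold change -0.35, adjusted p = 0.94).

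Families with a common role were counted in lists, beside 19 higher and 11 lower of 139 over all entries (median -0.07). Of the 139, 16 were lower without overlap, 18 were lower when scaled to summed RPMR and 16 under median-of-ratios scaling. Without replicate 3 of *dcl1-24/hyl1-2*, 15 of the 139 were higher and 14 lower (median -0.43). Of 8 entries tied to the silencing machinery, 0 were higher and 2 lower, both strands of miR162, with a median of -0.19, and of -0.75 without replicate 3 of *dcl1-24/hyl1-2*. miR168a/b-5p, which targets AGO1 mRNA, measured 92.6, 33.4 and 44.9 RPMR in Col-0 and 66.8, 62.8 and 99.5 RPMR in *dcl1-24/hyl1-2* (log2 fold change 0.52, adjusted p = 0.85 by limma, and 1.12 with adjusted p = 0.034 when scaled to the sum without miR5026). Among the 20 leaf and meristem entries (miR159, miR164 to miR166, miR319, miR394 and miR396), 0 were higher and 2 lower, miR159a and miR319c, with a median of -0.39, and 4 were lower without overlap. Of this list 5 were lower when scaled to summed RPMR, with miR159b-3p, miR165a/b-3p and miR165a-5p added, and 4 under median-of-ratios scaling. Without replicate 3 of *dcl1-24/hyl1-2*, 3 were lower and the median was -0.68. The 4 entries of siRNA triggers had 1 lower entry, miR173-5p, while miR390a/b-5p, the trigger that acts on TAS3, was at 43.6, 51.9 and 69.0 RPMR in Col-0 and at 61.0, 34.4 and 125 RPMR in *dcl1-24/hyl1-2* (log2 fold change 0.25, adjusted p = 0.94).

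Of the 13 tested auxin entries (miR160, miR167, miR390 and miR393), 0 were higher and 1 lower, miR393a-3p, with a median of -0.02. Under the 3 other scalings and without replicate 3 of *dcl1-24/hyl1-2*, 0 were lower, and the median without replicate 3 was -0.27. The guide of miR167a and miR167b, which targets mRNAs of auxin response factors, measured 180, 250 and 233 RPMR in Col-0 and 147, 226 and 301 RPMR in *dcl1-24/hyl1-2* (log2 fold change -0.02, interval -1.47 to 1.42). None of the 10 phase change entries (miR156, miR157 and miR172), the 6 copper entries (miR398 and miR408) or the 5 phosphate and sulfate entries was called, with medians of 0.05, -0.07 and -0.56. Without replicate 3 of *dcl1-24/hyl1-2* these medians were -0.24, -0.20 and -0.99, beside -0.43 over all entries. Of the phase change entries, 3 were higher when scaled to the sum without miR5026, and 1, the miR156 guide, was lower when scaled to summed RPMR or by median-of-ratios. Over all 139 entries, 27 were higher without miR5026 in the sum (median 0.43). Scaled to summed RPMR, 18 of the 139 were lower, and by median-of-ratios 16. The copper-responsive guide miR398b/c-3p was at 666, 467 and 306 RPMR in Col-0 and at 333, 419 and 560 RPMR in *dcl1-24/hyl1-2* (log2 fold change -0.09). With the 45S rRNA scaling, no entry was called either among 3 regulators of pentatricopeptide repeat genes (median -0.81), 2 of MYB genes (-0.33), 3 of disease resistance genes (-0.31) and 11 lineage-restricted entries (-0.51), although miR161.1 of the first list was called under other scalings as given above, and miR775 of the last was lower when scaled to summed RPMR (adjusted p = 0.037) and without replicate 3 (adjusted p = 0.031). Among 37 guide strands, 0 were higher and 4 lower (median -0.35), and among 33 passenger strands 0 and 2 (median 0.04). Without replicate 3 of *dcl1-24/hyl1-2* these medians were -0.59 and -0.49, beside -0.43 over all entries. The sign for passenger strands thus rested on that library, whose removal lowered the median of all entries as well. Of the guide strands 7 were lower both when scaled to summed RPMR and under median-of-ratios scaling, beside 18 and 16 of all 139 entries. Of the 33 passenger strands 4 were higher when scaled to the sum without miR5026, a smaller share than the 27 of 139 over all entries.

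The strands of a duplex were then compared within each library, where the 45S rRNA scaling cancels for abundant strands. The tested ratio has a pseudocount of 1 RPMR added to each strand. For strands of low level it therefore still depends on the scaling. Over 41 duplexes, limma on the log2 ratio called 1 higher (2.44%) and 2 lower (4.88%), while 2 were higher (4.88%) and 5 lower (12.2%) without overlap. The called duplexes were those of MIR5654, MIR156f and MIR156b. The median difference over the 41 was -0.13.

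All 4 MIR156 duplexes in the table had a lower ratio of guide to passenger strand in every *dcl1-24/hyl1-2* library than in any Col-0 library at 21 °C. The log2 ratio of the guide to miR156f-3p was 8.28, 7.69 and 8.20 in Col-0 and 6.60, 5.87 and 5.19 in *dcl1-24/hyl1-2*, a difference of -2.17 ± 0.48 (limma, adjusted p = 0.0086). To miR156b-3p it was 8.58, 7.34 and 9.11 in Col-0 and 7.20, 5.70 and 4.99 in *dcl1-24/hyl1-2*, a difference of -2.38 ± 0.61 (adjusted p = 0.014). The differences for miR156a-3p (-1.79, adjusted p = 0.052) and miR156c-3p (-0.98, adjusted p = 0.23) did not pass the test. The 4 ratios share their numerator, the single entry of the guide that covers 6 loci, and are not independent.

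At 27 °C, in other libraries, the 4 differences between *dcl1-24/hyl1-2* and Col-0 were also negative, but smaller. They were -0.71 for miR156f-3p (limma, adjusted p = 0.43), -1.71 for miR156b-3p (adjusted p = 0.14), -1.51 for miR156a-3p (adjusted p = 0.14) and -0.32 for miR156c-3p (adjusted p = 0.74). No duplex passed the test at 27 °C by limma (0 of 41, 0%), with 8 at an unadjusted p under 0.05, and no other tool was run. The change of the genotype difference with temperature was 1.46 for miR156f-3p (adjusted p = 0.60) and 0.28 to 0.67 for the others (adjusted p = 0.97 each), so that a change with temperature did not pass the test. In *hyl1-2* at 21 °C, against the same Col-0 libraries, all 4 ratios were lower as well, with differences of -2.58 for miR156f-3p, -3.06 for miR156a-3p and -2.40 for miR156c-3p (adjusted p = 0.00030 each) and of -4.34 for miR156b-3p (adjusted p = 3.4e-05). In that comparison 13 of the 41 duplexes were lower (31.7%) and 3 higher (7.32%).

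The sequences of this family, with capitals marking bases 2 to 8 as above, are those of the shared guide and of the passenger strands of the called duplexes.
miR156a-5p: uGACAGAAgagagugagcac
miR156f-3p: gCUCACUCucuauccgucacc
miR156b-3p: uGCUCACCucucuuucugucagu

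Neither the guide nor any passenger strand passed the test on its own with the 45S rRNA scaling. miR156f-3p was at 17.3, 5.07 and 7.09 RPMR in Col-0 and at 13.8, 10.9 and 47.5 RPMR in *dcl1-24/hyl1-2* (log2 fold change 1.08, limma, adjusted p = 0.40), and miR156b-3p at 13.9, 6.76 and 3.31 RPMR against 8.77, 12.3 and 54.7 RPMR (1.29, adjusted p = 0.29). Scaled to the sum without miR5026, miR156f-3p (1.54, adjusted p = 0.022) and miR156b-3p (1.69, adjusted p = 0.033) were called higher. The highest passenger values came from replicate 3. Without that library no duplex passed the test in either direction, and without Col-0 replicate 1 6 duplexes were lower. Outside MIR156, 0 of 30 guide over passenger ratios were called, with a median of -0.11.

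MIR5654 moved the other way. Its log2 ratio of 5p to 3p was -3.63, -1.64 and -1.70 in Col-0 and -0.61, 0.92 and 0.62 in *dcl1-24/hyl1-2*, a difference of 2.63 ± 0.68 (limma, adjusted p = 0.014). miR5654-5p was at 0, 0 and 0.473 RPMR in Col-0, so the Col-0 ratios were set largely by the pseudocount and the 3p strand. With a pseudocount of 5 the difference was 1.19 (limma, adjusted p = 0.057). The 5p strand rose as given above, while miR5654-3p was at 11.4, 2.11 and 3.78 RPMR in Col-0 and at 6.26, 3.78 and 8.96 RPMR in *dcl1-24/hyl1-2* (log2 fold change 0.30, adjusted p = 0.94). In *hyl1-2* the difference from Col-0 was 2.67 (adjusted p = 0.0044), and between *dcl1-24/hyl1-2* and Col-0 at 27 °C it was 2.00 (adjusted p = 0.14). The call at 21 °C too was lost without replicate 3 of *dcl1-24/hyl1-2*.

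**Figure D4:**
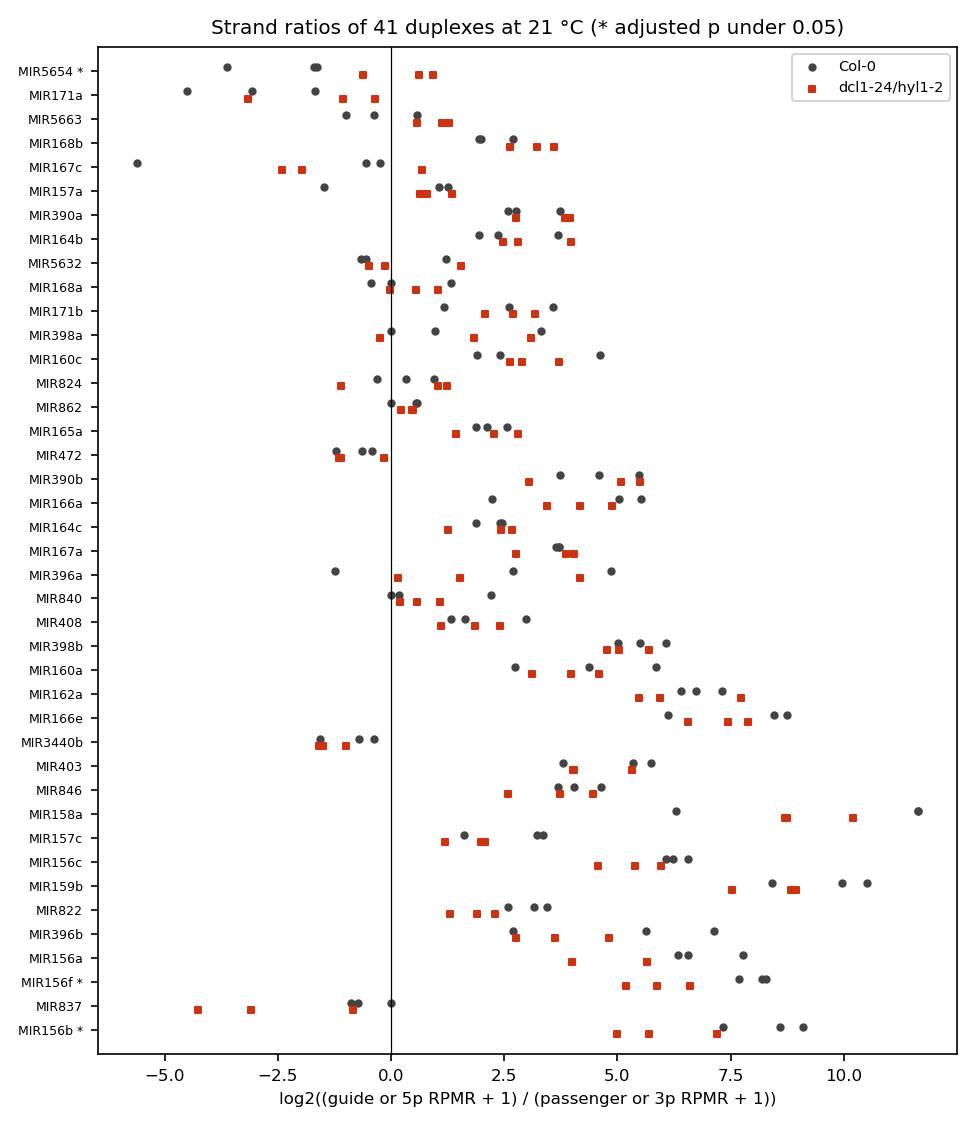
Log2 ratio of the strands of 41 duplexes at 21 °C, with 3 libraries of Col-0 (circles) and 3 of *dcl1-24/hyl1-2* (squares), ordered by the difference between genotypes; duplexes without a known guide show 5p over 3p, and asterisks mark an adjusted p under 0.05. The squares lie to the left of the circles for all 4 MIR156 duplexes and for MIR822, and to the right for MIR5654.

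The same genotypes at 27 °C, measured in other libraries, gave 23 higher (16.5%) and 14 lower entries (10.1%) by limma. All 19 entries that were higher at 21 °C were also called higher at 27 °C. The 11 lower entries all had a negative fold change there, 8 of which were called. The filter on all 18 libraries included those at 27 °C. Some entries near 0 in Col-0 were thus tested partly because *dcl1-24/hyl1-2* was high at 27 °C. An example is miR8178, at 1.45, 3.56 and 7.10 RPMR there and at 0 in all Col-0 libraries. For such entries, the shared call was partly set by the filter and is a description. miR5026 measured 813, 1929 and 420 RPMR in Col-0 at 27 °C and 17730, 30979 and 43895 RPMR in *dcl1-24/hyl1-2* (log2 fold change 5.05, adjusted p = 6.9e-11). miR822-5p measured 157, 192 and 69.6 RPMR against 1.45, 7.57 and 5.46 RPMR (log2 fold change -4.65, adjusted p = 4.9e-07). The difference between both temperatures was tested as an interaction, and 0 of 139 entries (0%) passed an adjusted p of 0.05 (lowest adjusted p 0.97) with 1 at an unadjusted p under 0.05, miR5632-5p. No other tool was run for this test.

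**Figure D5:**
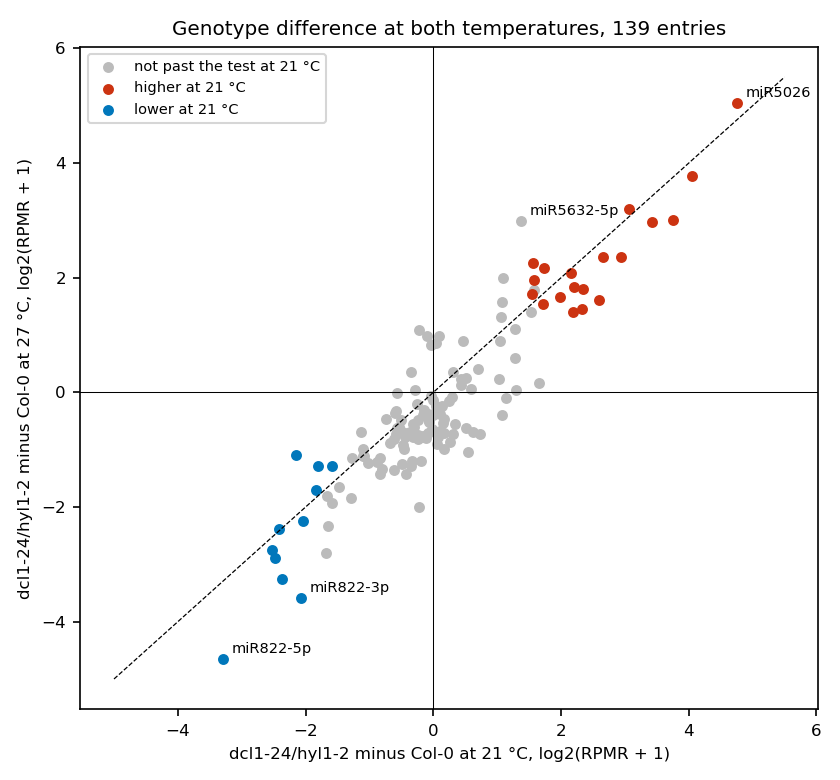
Difference between *dcl1-24/hyl1-2* and Col-0 on the log2(RPMR + 1) scale at 21 °C (horizontal) and at 27 °C (vertical) for 139 entries, coloured by the call at 21 °C, with the line of equal differences dashed. The 19 higher entries lie to the upper right and the 11 lower entries in the lower left.

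Beside these results, *hyl1-2* at 21 °C, compared with the same Col-0 libraries, had 1 higher and 83 lower entries (59.7%). Among the 19 entries increased in *dcl1-24/hyl1-2*, 1 was lower (miR5996) and 1 higher (miR5654-5p) in *hyl1-2* than in Col-0, and 18 were above *hyl1-2* in the suppressor line. Among the 11 decreased entries, 9 had a lower call in *hyl1-2* too, with a median log2 fold change of -3.70. The 109 entries that did not differ by the test between *dcl1-24/hyl1-2* and Col-0 included 73 with a lower call in *hyl1-2* against the wild type and 87 with a higher call in the suppressor line against *hyl1-2*. These comparisons share libraries, and the numbers are set side by side without a test of their likeness.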

How the data were processed

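Small RNA of whole seedlings was sequenced by the authors. In their account, RNA of 15 to 40 nt was taken from a gel, cutadapt 3.0 removed the adapters, ShortStack placed reads of 18 to 42 nt on the Araport11 genome without mismatches, and DESeq2 1.35.0 served for their own comparisons. The deposited values are a form of RPM, in which the authors divided miRNA read numbers by those of 45S rRNA fragments (RPMR). This scaling and the placement of reads that match several loci cannot be undone. All 18 columns were used, and 0 were left out.

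RPMR values were tested on the log2(RPMR + 1) scale by limma 3.58.1 (R 4.3.3), with a variance trend, 6 group means and two-sided tests, over 139 of the 161 entries (those reaching 1 RPMR on average). Adjusted p-values are by Benjamini and Hochberg over all entries, or over 41 duplexes for log2((guide + 1)/(passenger + 1)). Fold changes are on these scales, which understate the change of low entries. Values per library were compared by exact permutation over 20 arrangements. Depth was read from the steps of the values (largest distance from a whole multiple 1.1e-10) and covers counting error only. Positions and sequences came from RefSeq TAIR10.1, and all 203 names matched. Python 3.11.15 with pandas 2.3.3, numpy 2.4.6, pysam 0.24.0 and matplotlib 3.10.9 was used, and the tests were tried on simulated data.

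The members, lists and tests were chosen with earlier results of these data known. Entries named were drawn from those past an adjusted p of 0.05, the 10 most abundant, the 2 to 4 most abundant of each list, called duplexes and the other strand of a named entry. For some lists only counts and medians are given, or fewer entries are named. miR838, miR775, miR171b-5p, miR1888a, miR5632-5p, miR5663-5p, miR869.2 and the miR165a entries were chosen after their values were seen. As alternatives, the pseudocount was set to 0.5 or 5, the filter was dropped or raised to 5 RPMR, 3 other scalings, a replicate term, array weights and a fit without the other groups were used, and each library was left out in turn. The ratios within families were added after the data were seen.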

Additional observations from a re-analysis of the deposited data

How the results depend on the processing

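Of the 30 called entries, none changed sign under the alternatives run. Past an adjusted p of 0.05 in every leave-one-out fit were 11 of the 19 higher and 4 of the 11 lower entries, and in every scaling 12 and 7. The counts of calls, 19 higher and 11 lower, became 5 and 7 with a minimum mean of 5 RPMR, where fewer entries were tested. Lower calls were 18 when scaled to summed RPMR and 7 when scaled to the sum without miR5026 or with only the compared groups fitted, and the causes were not tested. At an unadjusted p under 0.01 with over 2-fold change, higher calls were 10 with a pseudocount of 5, 5 with a minimum mean of 5 RPMR and 12 scaled to summed RPMR. Lower calls at that threshold were 7 with a minimum mean of 5 RPMR, 18 scaled to summed RPMR, 5 scaled to the sum without miR5026 and 7 with only the compared groups. Leaving out single libraries gave 15 to 21 higher and 8 to 14 lower calls at the adjusted p, and likewise 15 to 21 and 8 to 14 at the other threshold.

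Strand ratios were the least stable. Duplexes called higher, 1 in all, were 0 with a pseudocount of 5, a minimum mean of 5 RPMR, only the compared groups or array weights, and 0 to 1 over single libraries left out. Duplexes called lower, 2 in all, were 4 with a pseudocount of 5, 0 with only the compared groups, 1 with array weights, and 0 to 6 over single libraries left out. The log2 ratio of summed RPMR was -0.90 without both miR5026 and miR158a-3p, an alternative chosen after seeing the data.

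With the replicate number as a block, the 19 and 11 calls were the same entries, and 3 duplexes were lower. Same-numbered libraries of the genotypes did not deviate together in every pair (correlations 0.33, 0.60 and -0.14), so the numbers were not taken as pairs. Among the single entries named, 68 results lost and 7 gained their call under an alternative. The count tests planned as alternatives (edgeR and DESeq2 on recovered reads) were not run, since the table has too few low values per library for the reads to be accepted as recovered. Depth limits the lowest entries: 1 read was worth 0.418 to 0.896 RPMR in these libraries, and the calls of the lowest entries rest on a few reads per library.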

Other observations

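The 22 entries that did not reach a mean of 1 RPMR over the 18 libraries were left out of the tests. The highest of them in the libraries compared was miR841a-5p, listed at 0 in all Col-0 libraries and at 1.67, 0 and 6.27 RPMR in *dcl1-24/hyl1-2*. miR169b-3p was listed at 1.49, 1.27 and 1.42 RPMR in Col-0 and at 0 in all *dcl1-24/hyl1-2* libraries. Both amount to a few reads per library.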
